A study of Mus musculus with 12 samples.

Results

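The naive-state transcription factors described here are 9 genes, Esrrb, Klf2, Klf4, Klf5, Tfcp2l1, Zfp42, Tbx3, Prdm14 and Nr5a2, of the 51467 genes of the count table. They were taken by name, and each name matched 1 gene. All 9 passed the filter on low counts that left 14033 genes for testing, and each did so in total and in nascent libraries of both genotypes.

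Mouse embryonic stem cells (ESCs) of the wild-type (WT) line V6.5 were compared with a Dgcr8 KO ESC line made earlier. DGCR8 is the partner of the nuclease DROSHA that cuts microRNA (miRNA) hairpins out of primary transcripts. All cultures were kept in Knockout DMEM with LIF, fetal bovine serum (15%) and 2i, the latter being the MEK inhibitor PD0325901 and CHIR99021, which inhibits GSK3. A 30 min pulse of 500 uM 4-thiouridine (4sU), which growing transcripts take up in place of uridine, was given to all of them, and the RNA of each culture was then divided. RNA depleted of ribosomal RNA made the total libraries, which measure steady-state levels, and biotinylated RNA caught on streptavidin made the 4sU libraries, which measure nascent transcription. The 12 libraries, 3 replicates in each of 4 groups, held 4593914 to 9295245 counts each. The Dgcr8 KO cells are a single line and the labels do not say that it came from the WT line, so genotype and line cannot be told apart.

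Naive pluripotency is the state of the epiblast before implantation, and ESCs in LIF and 2i are its model in culture. LIF acts through the receptor chains LIFR and GP130 on STAT3, which turns on Klf4 and Tfcp2l1. GSK3 inhibition keeps beta-catenin, which relieves TCF7L1 repression of Esrrb, Klf2 and Tfcp2l1, and MEK inhibition removes the ERK signal that drives cells out of the state. The factors themselves bind many of the same enhancers as OCT4, SOX2 and NANOG.

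The miRNAs that Dgcr8 KO cells cannot process include the ESC-enriched cell cycle (ESCC) family, whose shared seed is shown because the 3′ UTRs of the 9 genes were searched for it. The mature sequences are from RefSeq (GRCm38.p6), and capitals mark the seed, bases 2 to 8. The miR-290 cluster members lie at chr7:3218968-3218989, chr7:3220691-3220712 and chr7:3220815-3220837, and the miR-302 member at chr3:127545665-127545687, all on the plus strand.
mmu-miR-291a-3p: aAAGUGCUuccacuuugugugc
mmu-miR-294-3p: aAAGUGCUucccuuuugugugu
mmu-miR-295-3p: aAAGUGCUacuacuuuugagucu
mmu-miR-302d-3p: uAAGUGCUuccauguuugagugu

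The match of this seed in a 3′ UTR is AGCACTT, or GCACTTA where an A lies opposite base 1, and both contain the hexamer GCACTT. In the longest annotated 3′ UTR of each tested gene (GENCODE M21, plus sense of the transcript only), AGCACTT was present in 17.9% of 11810 3′ UTRs, GCACTTA in 8.29%, either of them in 21.2%, and GCACTT in 33.8%. Among the 9 factors, Tfcp2l1 alone held a 7-base match, 1 AGCACTT in a 3′ UTR of 7734 bases, longer than 99.0% of the others. It also held a second hexamer. Tbx3 held 1 hexamer. Esrrb, Klf2, Klf4, Klf5, Zfp42, Prdm14 and Nr5a2 had none in 3′ UTRs of 533 to 2892 bases. The AU-rich motif TATTTAT, which is bound by decay factors of short-lived mRNAs, was present in 30.6% of all 3′ UTRs. It occurred in Klf2, Tbx3 and Nr5a2 once each and in Tfcp2l1 at 2 places, and in none of the other 5. The hexamers (capitals) of Tfcp2l1 at chr1:118683195-118683222 and chr1:118685081-118685108 and of Tbx3 at chr5:119683150-119683177, and the TATTTAT (capitals) of Klf2 at chr8:72320988-72321016 and of Nr5a2 at chr1:136843784-136843812, are printed with their flanks, 5′ to 3′ on the transcript (plus strand, Nr5a2 minus).
Tfcp2l1 AGCACTT site: tcgatggccgaGCACTTcccaactgcga
Tfcp2l1 hexamer: aagcatattttGCACTTgtaaatgaaaa
Tbx3 hexamer: aatctgccagtGCACTTtgttagatgta
Klf2 AU-rich site: aaacagactgcTATTTATtggaccttagg
Nr5a2 AU-rich site: ttggaatagttTATTTATattgtatatca

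A match is a description of the letters and not a measured site. For 8 of the 9 genes the whole 3′ UTR lay in the exons that were counted. The exons counted for Klf5 (1721 bases) held none of its 3′ UTR (1841 bases), so Klf5 values come from its 5′ and coding part alone. A 130-base stretch of Tfcp2l1 exon was shared with the small gene Gm23497 on the same strand, and the other 8 genes shared no counted exon base with another gene. The 9 genes lie apart, and their loci (mm10) are chr12:86361117-86521628 (Esrrb), chr8:72319033-72321656 (Klf2), chr4:55527143-55532466 (Klf4), chr14:99298691-99313405 (Klf5), chr1:118627946-118685168 (Tfcp2l1), chr8:43295063-43306980 (Zfp42), chr5:119670669-119684724 (Tbx3), chr1:13113457-13127163 (Prdm14) and chr1:136842571-136960448 (Nr5a2).

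Dgcr8 itself, the deleted gene, was at 92.5 to 111 CPM (counts scaled to library size with TMM factors) in the WT total libraries and at 32 to 34.1 in the KO total libraries, which do not overlap. In 4sU libraries Dgcr8 was at 107 to 118 CPM in WT and 71.2 to 86.8 CPM in KO cells, also apart, a nascent level of 0.703 of WT (adjusted p = 1.95e-06). Of the cell type markers, the 5 fibroblast genes Col1a1, Col1a2, Thy1, Dcn and Postn summed to 0.564 to 3.76 CPM in the 12 libraries, with Dcn and Postn at 0 counts throughout. Of 5 endoderm genes, Gata6, Sox17 and Sox7 were too low to test, and the sum was 6.87 to 9.02 CPM in WT total and 9.86 to 12.7 in KO total libraries. The 5 trophoblast genes summed to 68.8 to 78.7 CPM in WT total and 92.0 to 95.7 in KO total libraries, of which the keratin Krt8 made 9.32 and 52.6 CPM on average. The part of other cell types in the values below was not tested, and in bulk RNA fewer cells that express a gene and less RNA per cell cannot be told apart.

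Per kilobase of counted exon, all 9 factors were among the higher-expressed genes of WT ESCs. In WT total RNA the order was Zfp42 (212 ± 13.7 CPM per kb, SD, n = 3), Tfcp2l1 (143 ± 8.92), Esrrb (89.5 ± 1.66), Klf2 (76.5 ± 5.82), Klf4 (62.8 ± 4.25), Tbx3 (53.7 ± 0.867), Nr5a2 (28.9 ± 0.780), Prdm14 (28.3 ± 2.64) and Klf5 (24.7 ± 1.60). Zfp42 lay above 98.1% and Klf5 above 74.5% of tested genes. Neighbours in this order did not overlap between libraries, except that Prdm14 overlapped both Nr5a2 above it and Klf5 below it. In KO total RNA Klf2 moved from the fourth to the second place, at 212 ± 5.01 CPM per kb behind Zfp42 at 236 ± 9.01, and Nr5a2 moved to the last, at 16.7 ± 1.06 beside Klf5 at 17.5 ± 1.49, with which it overlapped. In nascent RNA the order was another one. Klf2 came first in WT cells at 486 ± 59.1 CPM per kb and in KO cells at 1470.3 ± 72.8, above 99.1% and 99.8% of tested genes, and Klf5, the lowest in WT total RNA, reached 189.6 ± 16 in WT nascent RNA, where its libraries overlapped those of Zfp42 (206 ± 13.5). Prdm14 was lowest in nascent RNA of WT cells at 26.6 ± 1.1.

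**Figure D1:**
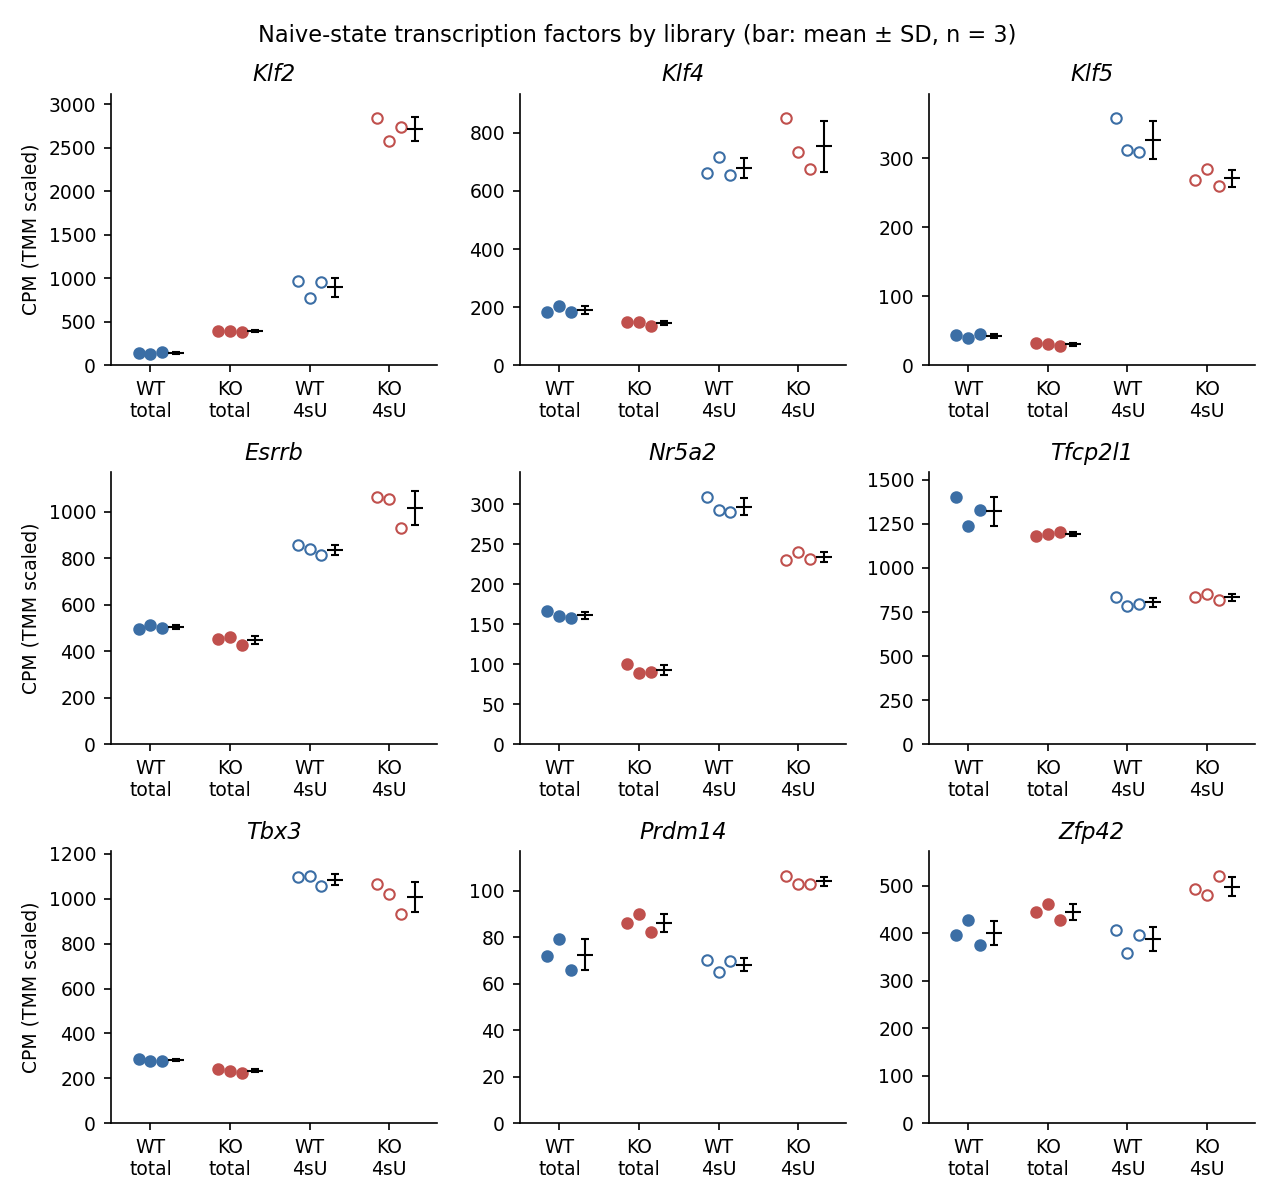
CPM of each factor in every library, with total libraries as filled and 4sU libraries as open circles, WT in blue and Dgcr8 KO in red, and mean ± SD (n = 3) as black bars. Klf2 stands higher in both kinds of KO library, while KO total libraries of Esrrb, Klf4, Klf5, Tfcp2l1, Tbx3 and Nr5a2 lie below their WT libraries.

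Klf2 rose and Nr5a2 fell the most among the 9 factors in Dgcr8 KO cells. In total RNA all 9 genes passed the test (limma-voom, Benjamini-Hochberg adjusted p under 0.05 over 14033 genes), 3 of them higher and 6 lower in Dgcr8 KO. This test was passed upward by 27.2% and downward by 36.7% of all tested genes, so passing it was common. Groups of 3 libraries did not overlap for any of the 9, against 68.8% of all genes. Past a log2 change of 1, which with the adjusted p is the limit used in the study, lay only Klf2, 1 of the 9, against 17.2% of all genes. The median log2 change of the 9 was -0.17, beside -0.09 over all tested genes. P-values measure the spread between these libraries, since the labels do not say how independent the replicate cultures were.

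The Krüppel-like factors KLF2, KLF4 and KLF5 bind CACCC and GC-rich sites, overlap in function and together sustain ESC self-renewal. Klf2 measured 144, 129.6 and 151 CPM in the WT total libraries and 398, 394 and 380.5 CPM in the KO total libraries. Every KO library was thus far above every WT library, a 2.77-fold rise (95% interval 2.5 to 3.07, adjusted p = 1.29e-17). In 4sU libraries Klf2 measured 965, 772 and 957 CPM in WT and 2839, 2572 and 2736 CPM in KO cells. The nascent rise was 3.03-fold (2.80 to 3.27, adjusted p = 3.24e-21), above 95.4% of tested genes. Klf2 was the only one of the 9 past a log2 change of 1 in nascent RNA, against 14.8% of all genes.

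Klf4 measured 182, 205 and 184 CPM in WT total and 149, 148 and 137 CPM in KO total libraries. The 2 sets were apart, and Klf4 total RNA fell by 0.40 on the log2 scale (SE 0.0727, adjusted p = 1.67e-05). In 4sU libraries it measured 663, 718 and 653 CPM in WT and 850.5, 733 and 677 CPM in KO cells. These groups overlapped. The nascent log2 change was 0.15 (SE 0.0591, adjusted p = 0.0333). This upward call was lost with RLE factors (adjusted p = 0.217), upper-quartile scaling (0.161), DESeq2 (0.297) and limma-trend (0.0695). It was kept with, among others, edgeR (0.0438) and scaling by library size alone (log2 change 0.18, adjusted p = 0.00830). Among the cultures it was lost without KO replicate 1, whose library was the highest (log2 change 0.07, adjusted p = 0.330). Leaving out WT replicate 1 or 3 also lost it (0.137 and 0.122).

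Klf5 was the least abundant in total RNA, at 43.7, 39.4 and 44.5 CPM in WT and 31.7, 31.4 and 27.1 CPM in KO libraries (188 to 383 counts a library). It fell by 0.49 on the log2 scale (SE 0.0963, adjusted p = 4.40e-05). Its nascent RNA was at 358, 312 and 309 CPM in WT and 269, 284 and 259.8 CPM in KO cells, and fell by 0.27 (SE 0.0595, adjusted p = 0.000276). Both kinds of library were thus apart between genotypes, in the direction opposite to Klf2.

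The orphan nuclear receptors ESRRB and NR5A2 bind closely related sites, and each can stand in for another pluripotency factor in some settings. Esrrb measured 497, 514 and 499 CPM in WT total and 453, 462 and 427 CPM in KO total libraries, which are narrow, separate ranges. Its total RNA fell by 0.17 on the log2 scale (SE 0.05, adjusted p = 0.00362). In nascent RNA Esrrb went the other way. It was at 857, 840.3 and 814 CPM in WT and 1062, 1057 and 931 CPM in KO 4sU libraries, and rose by 0.28 on the log2 scale (SE 0.0475, adjusted p = 9.70e-06).

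Nr5a2 measured 166, 160.1 and 158 CPM in WT total and 99.7, 88.5 and 90.6 CPM in KO total libraries. This was the largest fall of the 9, to 0.578 of the WT level (95% interval 0.531 to 0.628, adjusted p = 3.28e-13). Only 12.3% of tested genes had a lower total change. In 4sU libraries it measured 309, 292 and 289.8 CPM in WT and 229.7, 240.4 and 232 CPM in KO cells, a fall to 0.788 (0.730 to 0.850, adjusted p = 2.53e-06). The paired receptors thus shared the direction of the total change and not that of the nascent change.

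TFCP2L1 is a factor of the CP2 family whose gene is a direct target of STAT3, and TBX3 is a T-box factor that acts downstream of PI3K signalling. Tfcp2l1 had the most reads of the 9 in total RNA, at 1402, 1237 and 1329 CPM in WT and 1183, 1191 and 1203 CPM in KO libraries. It fell by 0.15 on the log2 scale (SE 0.0410, adjusted p = 0.00255). Nascent Tfcp2l1 was at 835, 784 and 794 CPM in WT and 834, 855 and 816 CPM in KO cells. These overlapped, and it was the only factor whose nascent change did not pass the test (log2 change 0.05, 95% interval -0.04 to 0.15, adjusted p = 0.349), with a sign that turned under RLE factors.

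Tbx3 measured 285, 277 and 277 CPM in WT total and 239.7, 234 and 226 CPM in KO total libraries, and fell by 0.26 on the log2 scale (SE 0.0536, adjusted p = 8.34e-05). In 4sU libraries it measured 1097, 1101 and 1056 CPM in WT and 1065, 1021 and 934 CPM in KO cells. These overlapped, with a log2 change of -0.11 (SE 0.0445, adjusted p = 0.0353). That call was lost without KO replicate 3, the lowest library (log2 change -0.04, adjusted p = 0.474), without KO replicate 2 (0.103), WT replicate 1 (0.0965) or WT replicate 2 (0.0763), and with the quasi-likelihood test of edgeR (0.0912). Limma-trend (0.0866), scaling by library size alone (0.0857) and a filter of 3 CPM in all 12 libraries (0.0687) also lost it.

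PRDM14 is a PR-domain protein that represses Fgf receptor and DNA methylation genes and is needed for germ cells, and ZFP42, known as REX1, is a zinc finger protein used as a marker of naive cells. Prdm14 measured 72.1, 79.5 and 66.0 CPM in WT total and 86.3, 90.05 and 82.4 CPM in KO total libraries. It rose by 0.26 on the log2 scale (SE 0.0684, adjusted p = 0.00160). Nascent Prdm14 was at 70.1, 65.0 and 69.7 CPM in WT and 106, 103 and 103 CPM in KO cells, a 1.52-fold rise (95% interval 1.37 to 1.69, adjusted p = 3.89e-08) and the largest after Klf2.

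Zfp42 measured 396, 427 and 376 CPM in WT total and 443, 462 and 428 CPM in KO total libraries. The highest WT and the lowest KO library lay side by side, and the rise of 0.15 on the log2 scale (SE 0.0523, adjusted p = 0.0107) was no longer past the threshold without WT replicate 3 (0.10, adjusted p = 0.113) or KO replicate 2 (0.13, adjusted p = 0.0773). In 4sU libraries Zfp42 measured 407, 358 and 395 CPM in WT and 494, 479.8 and 519.7 CPM in KO cells. These were well apart, and nascent Zfp42 rose 1.29-fold (95% interval 1.19 to 1.39, adjusted p = 1.71e-06).

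Over the 9 factors, nascent RNA passed the test upward for 5 (Klf2, Prdm14, Zfp42, Esrrb and Klf4) and downward for 3 (Nr5a2, Klf5 and Tbx3), against 28.3% and 28.0% of all tested genes. Groups did not overlap for 6 of the 9, against 59.0% of all genes. The median nascent log2 change of the 9 was 0.15, beside -0.02 over all genes. Esrrb and Klf4 fell in total and rose in nascent RNA, with a difference between those changes that also passed. That criterion, set after their values were seen, was met by 119 of the 14033 tested genes, or 0.848%.

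**Figure D2:**
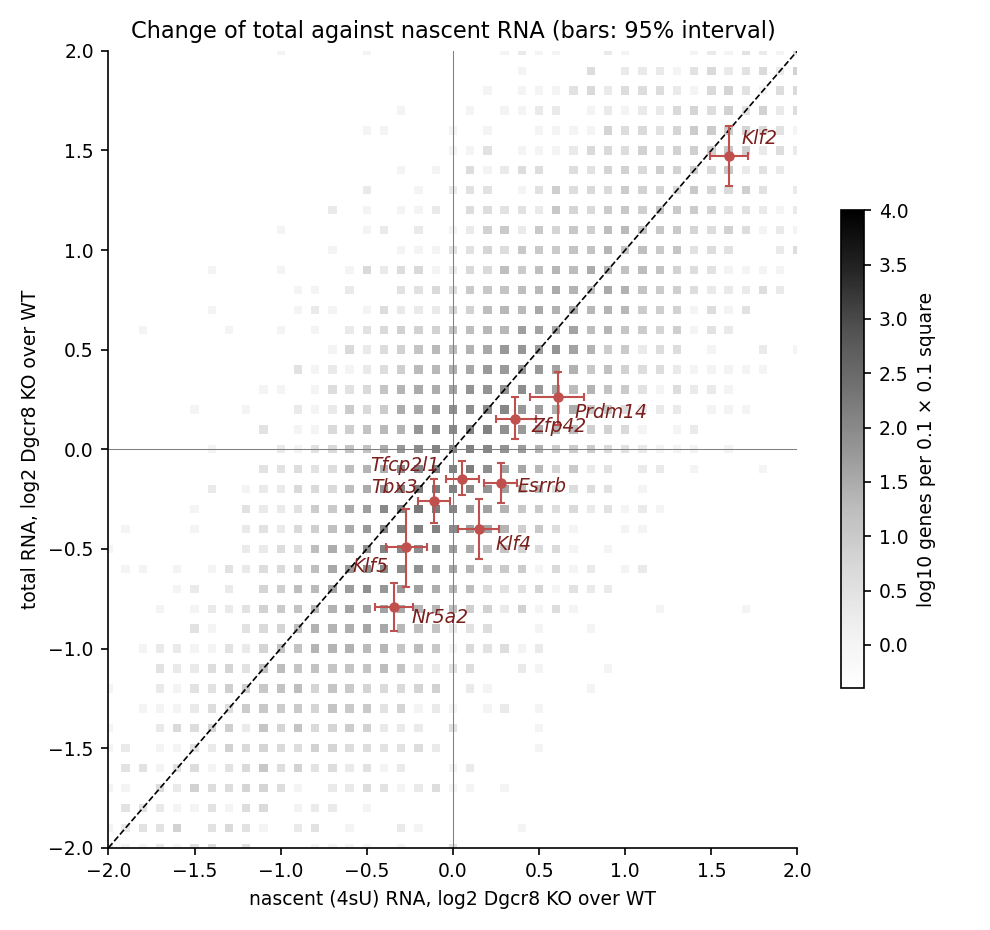
Log2 change of total RNA (vertical) against that of nascent RNA (horizontal), Dgcr8 KO over WT, with 95% intervals for the 9 factors in red and all tested genes as grey squares shaded by the log10 number of genes. The dashed line marks equal changes, and the 9 factors all lie below it, from Klf2 at 1.60 and 1.47 to Nr5a2 at -0.34 and -0.79.

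The upstream ends of the start-site regions of Klf2, the factor with the largest nascent change, and Esrrb are shown for their motifs. RefSeq promoters (GRCm38.p6, 250 bases before to 50 after a start) were at hand for Esrrb, Klf2, Klf4, Nr5a2, Tfcp2l1 and Zfp42. They were searched on both strands, with overlapping matches counted, for the GC box GGGCGG (present in 35.7% of 32851 promoters), the KLF motif CACACCC (7.95%), the ESRRB and NR5A2 motif CAAGGTCA (1.56%) and the STAT motif TTCNNNGAA (8.30%). Klf2 held 2 GC boxes, Klf4 held 4, and Zfp42 held 2 GC boxes and 1 CACACCC, of which 1 pair overlapped. The first of the Esrrb promoters held 1 CACACCC and 1 TTCNNNGAA. Those of Nr5a2 and Tfcp2l1 and the second of Esrrb held none of the 4, which says only that these letters are not in these windows. The first 100 bases of the Klf2 window (chr8:72318812-72318911, plus strand) and of the first Esrrb window (chr12:86360867-86360966, plus strand) carry these matches in capitals. They begin 250 bases before the start, and the bases next to the start are not printed.
Klf2 upstream: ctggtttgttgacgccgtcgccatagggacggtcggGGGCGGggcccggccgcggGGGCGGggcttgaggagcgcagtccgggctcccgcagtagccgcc
Esrrb upstream: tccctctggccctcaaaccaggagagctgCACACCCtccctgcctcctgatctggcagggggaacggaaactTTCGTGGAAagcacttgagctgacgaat

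The ratio of total to nascent RNA measures relative stability, because a long-lived mRNA accumulates in the total pool. It is relative to the other RNAs of the same libraries, and is given here minus the median of all tested genes. In WT cells 4 factors had low ratios. Klf5 was at -3.11, -3.10 and -2.89 on the log2 scale in the 3 cultures, Klf2 at -2.83, -2.68 and -2.76, Tbx3 at -2.03, -2.10 and -2.02 and Klf4 at -1.95, -1.92 and -1.92. The cultures of each gene lay close together, and Klf5 and Klf2 were 8.15-fold and 6.73-fold below the median gene, with 6.11% and 8.38% of tested genes lower than them. Tbx3 and Klf4 had 13.8% and 14.9% of genes below them.

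The nuclear receptors were intermediate in WT cells, Nr5a2 at -0.97, -0.98 and -0.97 and Esrrb at -0.87, -0.82 and -0.80. Zfp42 at -0.12, 0.14 and -0.16 and Prdm14 at -0.04, 0.18 and -0.17 were near the median gene, and both were highest in replicate 2. Tfcp2l1 was the only factor above the median, at 0.67, 0.55 and 0.65, higher than 69.7% of tested genes. Tfcp2l1, which has the 7-base seed match and the longest 3′ UTR, had the highest ratio of the 9. Tbx3, the other factor with a hexamer, was among those with low ratios, and a link of sites or length to the ratio was not tested. Neighbours in this order did not overlap between cultures, with the exception of Zfp42 and Prdm14.

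**Figure D3:**
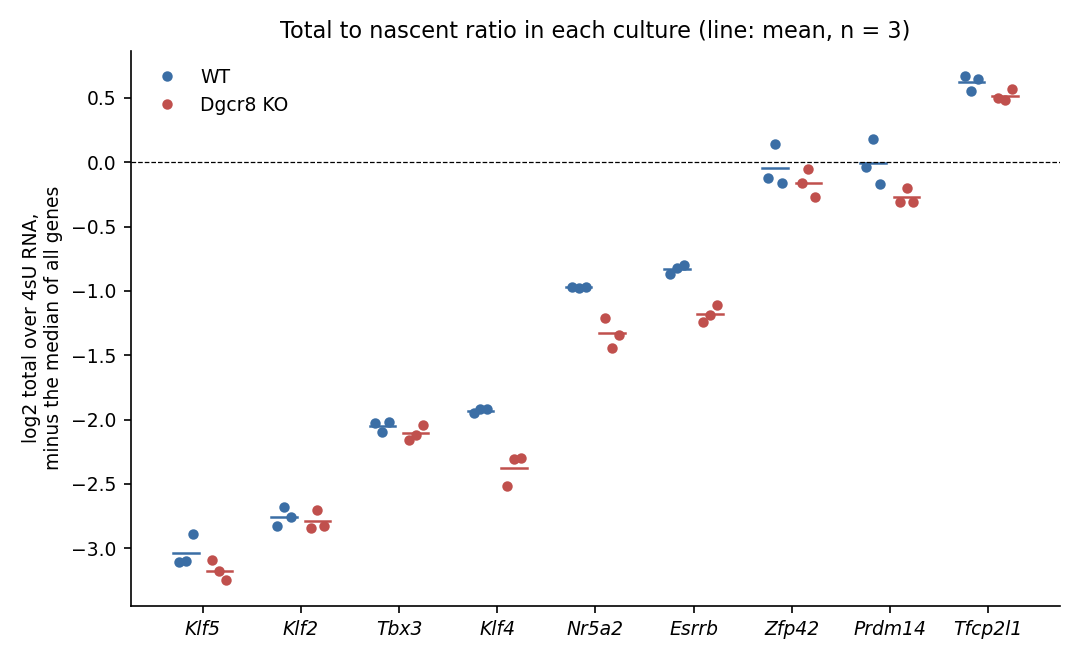
Log2 ratio of total to 4sU RNA minus the median of all tested genes, for each of 3 cultures of WT (blue) and Dgcr8 KO (red), with short lines for means. The WT means run from -3.03 for Klf5 to 0.62 for Tfcp2l1, and the gap between genotypes is widest for Klf4, Nr5a2 and Esrrb.

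In Dgcr8 KO cells the total to nascent ratio was lower for all 9 factors in value, and the decrease passed the test for 5 of them, Klf4, Esrrb, Nr5a2, Prdm14 and Tfcp2l1. This change is the interaction of library type and genotype, the log2 change of total RNA minus that of nascent RNA. Among all tested genes 11.1% passed downward and 5.02% upward. Of the 9 factors none passed upward, and none lay past a log2 change of 1, against 1.76% of genes. For ratios of TMM-scaled CPM, the 3 cultures of each genotype did not overlap for 7 of the 9, against 33.8% of genes with a ratio in every culture. For ratios minus the all-gene median of each culture they did not overlap for 4 of the 9, Klf4, Esrrb, Nr5a2 and Prdm14, against 31.7% of genes. The median change of the 9 was -0.22, beside -0.09 over all tested genes, and the middle 50% of genes spanned -0.32 to 0.13. All 9 values stayed below 0 and below the all-gene median under every scaling, test and left-out culture that was tried. A change of scaling shifts all genes by nearly the same amount, so scalings could not move the 9 against that median. The number past the threshold ranged from 3 to 6.

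Klf4 changed most, with a raw log2 ratio of -1.83 in WT and -2.38 in KO cells, a decrease of 0.55 (95% interval of the change -0.74 to -0.35, adjusted p = 8.40e-05). Only 11.6% of tested genes had a lower change. Relative to the median gene, KO cultures were at -2.52, -2.31 and -2.30, all below the WT cultures. Esrrb changed by -0.45 (-0.59 to -0.31, adjusted p = 1.93e-05), with KO cultures at -1.24, -1.19 and -1.11. Nr5a2 also changed by -0.45 (-0.61 to -0.28, adjusted p = 0.000149), with KO cultures at -1.21, -1.44 and -1.34. These 3 genes passed under every alternative that was run, with adjusted p values of at most 0.00638.

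Prdm14 changed by -0.35 (95% interval -0.56 to -0.14, adjusted p = 0.0155), with KO cultures at -0.31, -0.20 and -0.31. It was not past the threshold with RLE factors (-0.26, adjusted p = 0.0858), without WT replicate 2, the culture with the highest ratio (-0.25, adjusted p = 0.120), or without KO replicate 1 (adjusted p = 0.0533). The Prdm14 call was also lost with DESeq2 (0.119), upper-quartile scaling (0.0560) and no filter (0.0722). Tfcp2l1 changed by -0.20 (-0.33 to -0.07, adjusted p = 0.0266). It too was not past the threshold with RLE factors (-0.11, adjusted p = 0.304), with edgeR (0.0826), or without WT replicate 1 (0.0736) or 3 (0.0655) or KO replicate 1 (0.0785) or 2 (0.122). The Tfcp2l1 call was also lost with DESeq2 (0.342), limma-trend (0.0726), upper-quartile scaling (0.184), library size alone (0.0551) and no filter (0.144).

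The other 4 factors did not pass. Klf5 had a change of -0.22 (95% interval -0.45 to 0.01, adjusted p = 0.197), Zfp42 of -0.21 (-0.36 to -0.05, adjusted p = 0.0609), Tbx3 of -0.15 (-0.29 to -0.01, adjusted p = 0.149) and Klf2 of -0.13 (-0.31 to 0.06, adjusted p = 0.390). For Zfp42 the fit that joined the total and 4sU library of a culture gave an adjusted p of 0.0251 for the same change, and leaving out WT replicate 3 or KO replicate 2 gave -0.27 (0.0189 and 0.0497). The intervals of all 4 include changes as large as that of Tfcp2l1. For Klf2, the large rises of total and nascent RNA thus left a ratio that did not differ detectably.

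**Figure D4:**
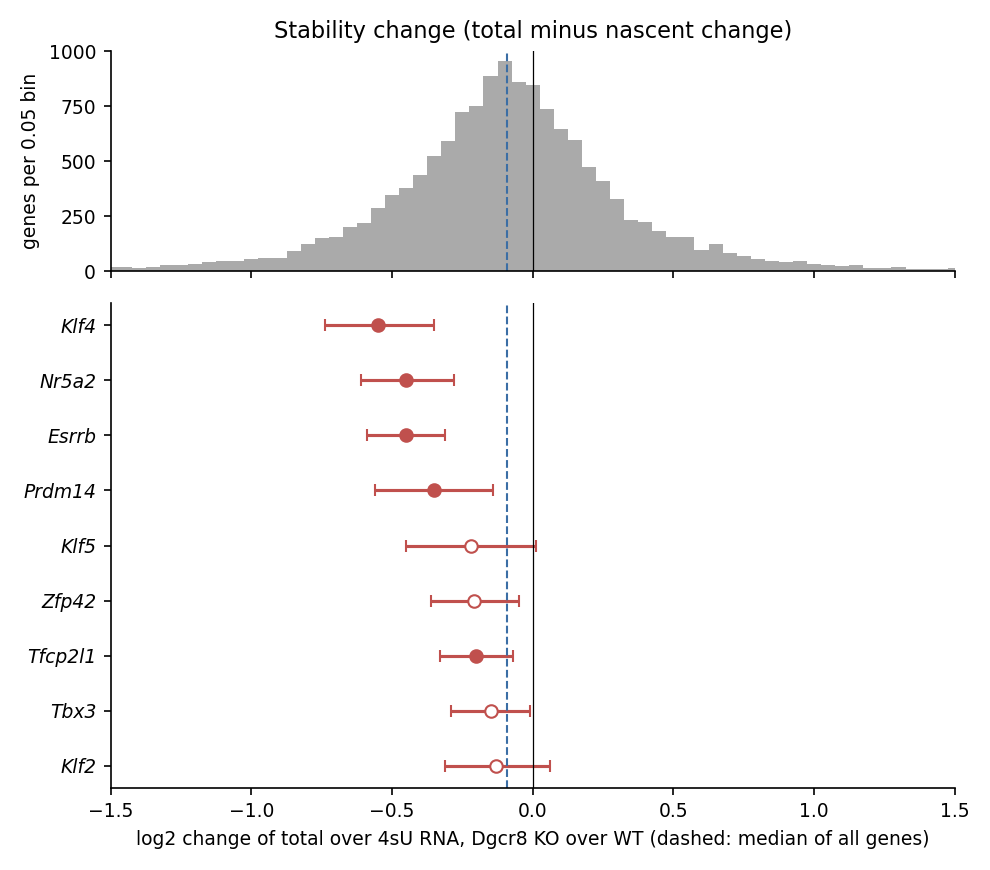
Change of the log2 total to 4sU ratio, Dgcr8 KO over WT, for the 9 factors with 95% intervals (below; filled where adjusted p was under 0.05) and the number of all tested genes per 0.05 bin (above), with the all-gene median dashed. All 9 points lie left of the median of -0.09, from -0.55 for Klf4 to -0.13 for Klf2.

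The genes that feed the naive factors moved in mixed directions. Of the 5 LIF-STAT3 genes, 4 rose in total RNA and none fell (median log2 change 0.41), where 27.2% of all tested genes rose and 36.7% fell. Il6st, which encodes the receptor chain GP130, rose by 1.67 in total (adjusted p = 2.24e-23) and by 0.81 in nascent RNA (3.96e-14), with a stability change of 0.86 (4.69e-10). Lifr rose by 0.41 in total RNA (1.21e-07) and the kinase gene Jak1 by 0.60 (3.32e-11), whereas Stat3 had a log2 change of -0.02 (adjusted p = 0.784). Socs3, the STAT3 target that inhibits the pathway, rose by 2.12 in nascent (1.07e-21) and by 0.32 in total RNA (0.00117), and its total to nascent ratio had a log2 change of -1.80 (1.22e-13).

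Of the 5 GSK3-Wnt genes, 2 rose and 2 fell in total RNA and likewise in nascent RNA (medians -0.12 and 0.03), beside 27.2% and 36.7% of all tested genes in total and 28.3% and 28.0% in nascent RNA. Gsk3b rose by 0.34 in total RNA (adjusted p = 1.46e-05), Gsk3a had a log2 change of -0.30 (0.00110), and Ctnnb1, which encodes beta-catenin, of -0.39 (1.13e-09). The repressor gene Tcf7l1 did not pass (-0.12, adjusted p = 0.350). Axin2, a target of beta-catenin, rose by 0.46 in nascent RNA (2.64e-05).

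Of 8 MEK-ERK genes, 2 rose and 5 fell in total RNA (median -0.37), beside 27.2% and 36.7% of all tested genes, and 3 rose and 3 fell in nascent RNA (median -0.07), beside 28.3% and 28.0%. The kinase genes Map2k1 and Map2k2 had total log2 changes of -0.31 and -0.43 (adjusted p = 9.47e-06 and 1.74e-06). The feedback inhibitor gene Spry2 had one of -0.95 (1.53e-10), and Etv5, an ERK-induced factor, one of -0.71 (1.21e-12). The ERK1 gene Mapk3 rose by 0.36 in total (0.00152) and by 0.38 in nascent RNA (0.0312), and the ERK phosphatase gene Dusp6 rose by 0.55 in nascent RNA (0.000156) and had a total change of 0.03 (0.914). Spry4 had 0 to 1 counts in WT total and 30 to 42 in KO total libraries, and 6 to 13 counts in WT and 190 to 266 in KO 4sU libraries. With MEK inhibited in all cultures, these levels are those of cells under the inhibitor.

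Of the 4 core factors, 2 rose and 2 fell in total RNA, beside 27.2% and 36.7% of all tested genes, and 3 rose and 1 fell in nascent RNA, beside 28.3% and 28.0%. Pou5f1, which encodes OCT4, and Sox2 rose in total RNA by 0.26 and 0.32 (adjusted p = 1.42e-06 and 2.61e-07), and Nanog and Sall4 had log2 changes of -0.18 (0.000780) and -0.46 (1.46e-09). None was past a log2 change of 1. In nascent RNA Sox2 rose by 0.52 (4.85e-12), Pou5f1 by 0.14 (0.0441) and Nanog by 0.16 (0.00221), and Sall4 had a log2 change of -0.22 (0.000554). The summed level of the 4 in 4sU libraries was 3112 to 3263 CPM in WT and 3577 to 3922 CPM in KO cells, which do not overlap. For Nanog the directions in total and nascent RNA were opposite and its stability change was -0.34 (0.000193), the same signs as Esrrb and Klf4.

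Of 9 other genes of naive cells, 3 rose and 3 fell in total RNA, beside 27.2% and 36.7% of all tested genes. The germline and oocyte factor Dppa3 was at 84 to 113 counts in WT total and 1 to 5 in KO total libraries. The AKT cofactor gene Tcl1 had a log2 change of -2.05 (3.80e-19) and the homeobox gene Gbx2 of -1.03 (0.000149). The Wnt target Sp5 rose by 1.93 (7.60e-07), Jam2 by 0.71 (9.85e-15) and Tet2 by 0.21 (0.000621). Fgf4, Nr0b1 and Sox15 did not pass in total RNA (adjusted p = 0.965, 0.960 and 0.229).

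Of 8 markers of the primed state, Fgf5 (at most 1 count in any library) and Sox3 were too low to test. Of the other 6, 4 rose in total RNA (Otx2 by 0.78, Dnmt3a by 0.42, Lef1 by 1.19 and Zic2 by 0.52) and 2 fell, Pou3f1 with a log2 change of -2.42 and Dnmt3b of -0.90. In nascent RNA likewise 4 rose and 2 fell (median log2 change 0.67, against 0.47 in total RNA). Of all tested genes 27.2% rose and 36.7% fell in total and 28.3% and 28.0% in nascent RNA. The summed level of the 8 markers was 245 to 253 CPM in WT total and 236 to 249 CPM in KO total libraries, which overlapped, and 233 to 263 CPM in WT and 357 to 416 CPM in KO 4sU libraries, which did not. Zic2 made the largest part of the 4sU sums, 140 CPM on average in WT and 239 CPM in KO cells.

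**Figure D5:**
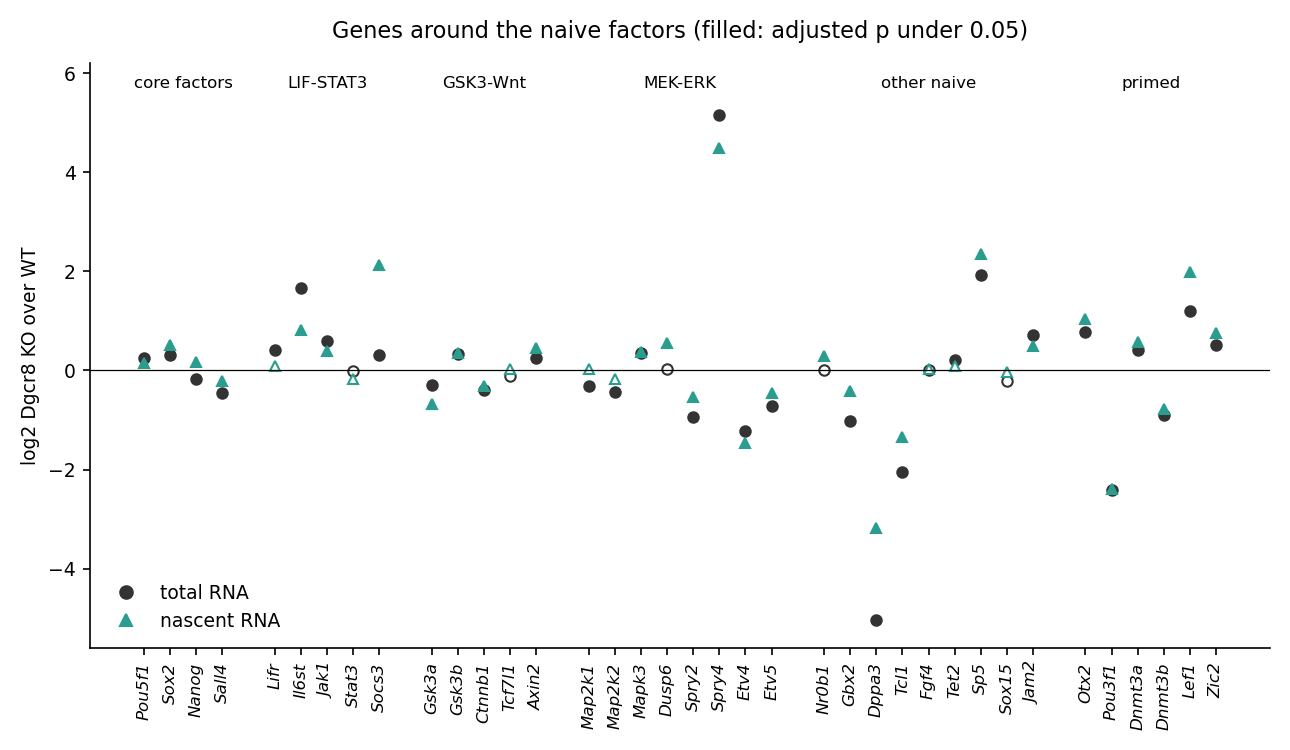
Log2 change, Dgcr8 KO over WT, of the genes around the naive factors in total RNA (black circles) and nascent RNA (green triangles), filled where adjusted p was under 0.05. The widest changes are those of Spry4, whose WT total libraries held 0 to 1 counts, and Dppa3, whose KO total libraries held 1 to 5 counts.

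For each factor, the protein-coding gene with the most similar pattern over the 4 group means was found by Euclidean distance between log2 CPM values centred on each gene, among 11875 genes. The nearest to Tbx3 was Zfp689 (distance 0.0197), to Tfcp2l1 Serhl (0.0354), to Prdm14 Kcnab3 (0.0382), to Zfp42 Rad51b (0.0409) and to Esrrb Srrd (0.0414). More distant were those of Klf5 (Rps27, 0.0585), Nr5a2 (Bcas1, 0.0804), Klf4 (Ifitm5, 0.0918) and Klf2 (D1Pas1, 0.1001). Ifitm5 had fitted total and stability changes of -0.69 and -0.80, against -0.40 and -0.55 for Klf4. The likeness of these 2 genes thus did not extend to the fitted changes. D1Pas1 and Rps27 have near-identical copies elsewhere in the genome, so their counts of unique reads are uncertain. Among the 9 factors themselves, Zfp42 and Prdm14 were closest (0.188), then Klf4 and Tbx3 (0.218), and the distance between Klf2 and Tfcp2l1 was the largest (3.70). These distances rest on 4 group means.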

How the data were processed

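The deposited values were raw counts of reads over genes. Per the labels and file header, the authors trimmed reads with Cutadapt 1.14, mapped unique reads with STAR 2.5.3a to mm10 and counted them on the reverse strand with featureCounts 1.5.3 against GENCODE M14 basic exons without rRNA genes. Unique mapping under-counts genes with near-identical copies. The 92 spike-in rows held 1 count in all and were left out. Of 51559 identifiers, 51274 matched a GENCODE M21 symbol. Total counts were 4593914 to 9295245 a library.

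Genes with 3 CPM in at least 3 libraries were kept (14033), scaled by TMM and given voom weights (edgeR 4.0.16, limma 3.58.1, R 4.3.3). The model was library type, genotype and their interaction over all 12 libraries. Stability is the interaction. CPM in the text are scaled with TMM factors, and intervals are those of the model. Motifs were searched in GENCODE M21 3′ UTRs and RefSeq promoters. Similarity used log2(CPM + 0.5). The fits were also run on simulated counts in which genes were changed in KO total RNA alone and every library was drawn independently. That run did not cover nascent changes or the shared RNA of total and 4sU libraries.

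Total and 4sU libraries with 1 number in their titles come from the same RNA, which the treatment protocol says was split. Their deviations from group means correlated by 0.0161 to 0.105 over genes. A fit with the culture as block is given where it changed a call.

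Alternatives were edgeR, DESeq2 1.42.0, limma-trend, other scalings and filters, blocks, and leaving out each culture with both its libraries. Named genes are the 9 factors, Dgcr8, genes of fixed lists (LIF-STAT3, GSK3-Wnt, MEK-ERK, core, other naive, primed, relatives, and endoderm, trophoblast and fibroblast markers) and the nearest gene to each factor. The factors and lists were chosen with earlier results of these data known. Reads carried no molecular identifiers. Some listed genes are not reported here, and the counts of their lists leave them out.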

Additional observations from a re-analysis of the deposited data

Results flagged for a closer look

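For 5 of the 9 factors the difference between Dgcr8 KO and WT cells differed between total and nascent RNA by the interaction term of limma. Of all tested genes 11.1% passed that test downward and 5.02% upward. The log2 difference was -0.55 for Klf4, -0.45 for Esrrb, -0.45 for Nr5a2, -0.35 for Prdm14 and -0.20 for Tfcp2l1. The calls of Prdm14 and Tfcp2l1 were lost under several of the alternatives. In Esrrb and Klf4 the signs were opposite, with total changes of -0.17 and -0.40 and nascent changes of 0.28 and 0.15. In Nr5a2 total RNA had a log2 change of -0.79 and nascent RNA of -0.34, and in Prdm14 the rise was 0.26 in total and 0.61 in nascent RNA. Tfcp2l1 had a total change of -0.15 and a nascent change of 0.05, the latter not past the threshold. What lies behind these differences was not tested.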

How the results depend on the processing

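Of 414 values of the 27 single-gene changes under alternatives, 374 kept direction and side of the threshold, 34 lost and 4 gained the call, in 6 of the 27 changes, and 2 reversed, both of nascent Tfcp2l1 (-0.0043 with DESeq2, -0.0048 with RLE scaling). Without a limit on the fold change, 9 factors counted in total RNA, 8 in nascent RNA and 5 in stability, in place of 1, 1 and 0. Without that limit 27.2% of all tested genes rose and 36.7% fell in total RNA. The shares were 28.3% and 28.0% in nascent RNA and 5.02% and 11.1% in stability. With the limit 17.2%, 14.8% and 1.76% of all tested genes counted in total RNA, nascent RNA and stability. The stability count of 5 became 3 with DESeq2, with RLE scaling, with upper-quartile scaling and with no filter, and 3 to 5 with a culture left out, 3 being without KO replicate 1. RLE scaling also moved the all-gene stability median from -0.09 to -0.0026. With the replicate block it was 6, Zfp42 being added. Whether equal numbers pair WT with KO libraries could not be told from the correlations of their deviations (-0.0825 to 0.0777). Libraries of the same RNA themselves reached only 0.0161 to 0.105. Neither the replicate block nor the culture block changed another single-gene call than that of Zfp42. The median ratio of the 9 over the median gene was -0.97 in WT and -1.33 in KO cells. It was -0.41 and -0.73 with no filter, where the all-gene medians were themselves -0.39 and -0.48, and -1.25 and -1.61 with 3 CPM in all 12 libraries. In WT cells it was -0.96 with the replicate block and -0.99 to -0.98 with a culture left out. Depth limited Klf5 total RNA most, at 188 to 383 counts a library.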

Other observations

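Of 17 relatives of the naive factors, genes of the same protein families that are not counted among them, 13 could be tested. In nascent RNA 11 rose and 2 fell (median log2 change 0.72), in total RNA 6 rose and 3 fell (median 0.13), and in stability none rose and 5 fell (limma, adjusted p under 0.05). Of all tested genes 28.3% rose and 28.0% fell in nascent RNA, 27.2% and 36.7% in total RNA and 5.02% and 11.1% in stability. The difference between nascent and total counts was not tested. The 8 KLF genes tested among these relatives were Klf3, Klf6, Klf7, Klf9, Klf10, Klf11, Klf13 and Klf16. All passed upward in nascent RNA, against 28.3% of all tested genes, from 0.44 for Klf9 (adjusted p = 3.38e-07) to 1.03 for Klf6 (1.26e-16). Of the KLF genes among the 9 factors, Klf2 passed upward and Klf4 did so with a call that some alternatives lost. Klf5 passed downward (-0.27, adjusted p = 0.000276). KLF genes outside these lists were not examined. Klf16 had opposite changes, 0.75 in nascent and -0.64 in total RNA, and its stability change was -1.39 (1.89e-09). Klf6 and Esrra had stability changes of -0.90 and -0.79 (4.04e-09 and 0.00143). Prdm1, which acts in germ cell and B cell fate, rose by 1.27 in nascent RNA (2.81e-15). Ubp1 and Yy1, relatives of Tfcp2l1 and Zfp42, had nascent changes of -0.45 and -0.16 (5.39e-05 and 0.0455). Esrrg, Nr5a1, Tbx2 and Yy2 were too low to test, Yy2 with no count in any library.

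The 9 factors together made up 3068 to 3187 CPM of WT total and 3000.0 to 3101 CPM of KO total libraries, which overlapped, and 5243 to 5560 CPM of WT and 7208 to 7749 CPM of KO 4sU libraries, which did not. Klf2 made 4.54% of the sum in WT total, 12.8% in KO total, 16.7% in WT 4sU and 36.5% in KO 4sU libraries.

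Of the marker lists, 1 of 2 tested endoderm genes rose in total RNA (Pdgfra by 2.2, adjusted p = 1.54e-05). Pdgfra had only 3 to 11 counts in WT total libraries, and Gata4, the other tested gene, did not pass (0.36, adjusted p = 0.099). Gata6, Sox17 and Sox7, too low to test, had lower mean CPM in KO than in WT total libraries. Of 3 tested trophoblast genes 1 rose (Krt8 by 2.49, 3.94e-17) and 1 fell (Tfap2c, log2 change -0.67, 4.16e-07). Of all tested genes 27.2% rose and 36.7% fell in total RNA. The fibroblast genes could not be tested.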
